A study of Mus musculus with 6 samples.

Results

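The genes described here are 35 genes of T cells and cytotoxic lymphocytes, listed by name for what they encode: the CD3 chains of the T cell receptor, the coreceptors, costimulatory and inhibitory receptors, receptor-proximal kinases and adaptors, cytokine receptors, granule enzymes, interferon gamma, killer cell receptors and lineage transcription factors. All 35 were on the array, on 49 probes of 60 bases, with 22 genes on a single probe and 13 on several, and each gene was read at its brightest probe. 26 of the 35 were bright enough to be tested, among 20716 genes tested in all.

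RNA came from kidney glomeruli, the capillary tufts that filter blood, isolated by bead perfusion from male mice aged 4 months. BXSB/MpJ-Yaa mice, a model of autoimmune glomerulonephritis, carry the Yaa mutation, a copy of a segment of the X chromosome on the Y chromosome. BXSB/MpJ-Yaa+ mice, the controls, carry a wild-type Y chromosome, and both lines share the BXSB background, a recombinant inbred strain from a C57BL/6 female and a SB/Le male. The 6 glomerular populations of each strain were combined into 3 pools, and each pool was read on 1 array, so that there were 3 Yaa arrays and 3 control arrays and the tests measure the spread between pools. The mutation is carried by every cell of the mouse, kidney and immune cells alike.

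Levels below are log2 processed signals minus the array's 75th percentile, so that 0 is the brightness of the probe at that percentile. That percentile stood at a signal of 235 to 264 on the control arrays and at 247, 254 and 377 on Yaa replicates 1, 2 and 3, and 50.5% to 59.7% of spots were well above background, the most on Yaa replicate 3. The title, description and genotype of each sample agreed on its strain while the source name gave the other strain. Tlr7, an RNA receptor of the copied X segment, was 0.91 ± 0.12 (log2, SE) higher on the arrays labelled Yaa (limma adjusted p = 0.00693). Of the podocyte markers, which define the epithelium of the glomerulus, 7 to 9 of 9 were well above background on each array.

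T cells recognise antigen with a receptor whose alpha and beta chains bind the peptide and whose CD3 chains carry the signal inward, to the kinases Lck and Zap70 and the adaptor Lat. Helper T cells carry Cd4 and killer T cells carry Cd8a and Cd8b1, and killer T cells and NK cells kill with perforin and granzymes stored in granules. In glomerulonephritis, lymphocytes can gather around and inside glomeruli beside macrophages, and interferon gamma from T and NK cells acts on the resident cells.

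Most of the tested genes lay higher on average in Yaa glomeruli, 1 of the 3 Yaa arrays stood far above the other 2, and 1 gene passed the test. Of the 26 tested genes 24 had a fold change above 0, with a median log2 fold change of 1.10 against -0.11 over all genes tested. The median was 0.61 without Yaa replicate 3 and 0.61 after normexp background correction, and over all 35 genes, dim ones included, it was 1.05. A single gene, the killer cell receptor gene Klrd1, passed limma's test at an adjusted p of 0.05 and none passed as lower, where 3.81% of all genes passed, 2.96% as higher and 0.85% as lower. With 1 array left out, 0 to 3 of the listed genes passed, where 1.92% to 4.75% of all genes did. At an unadjusted p below 0.05 there were 9 genes, all higher (6.55% of all genes were higher at that p, and 16.1% passed it in either direction): Klrd1, Cd247, Cd3g, Gzma, Gzmb, Lat, Il2rb, Cd5 and Cd6. For 10 of the 26 every Yaa array lay above every control array (7.81% of all genes) and for 0 every Yaa array lay below (17.4% of all genes). Of the 26, 24 were well above background on all arrays of both groups, Cd247 passed the filter through the Yaa arrays alone and Cd8a through the control arrays alone.

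**Figure D1:**
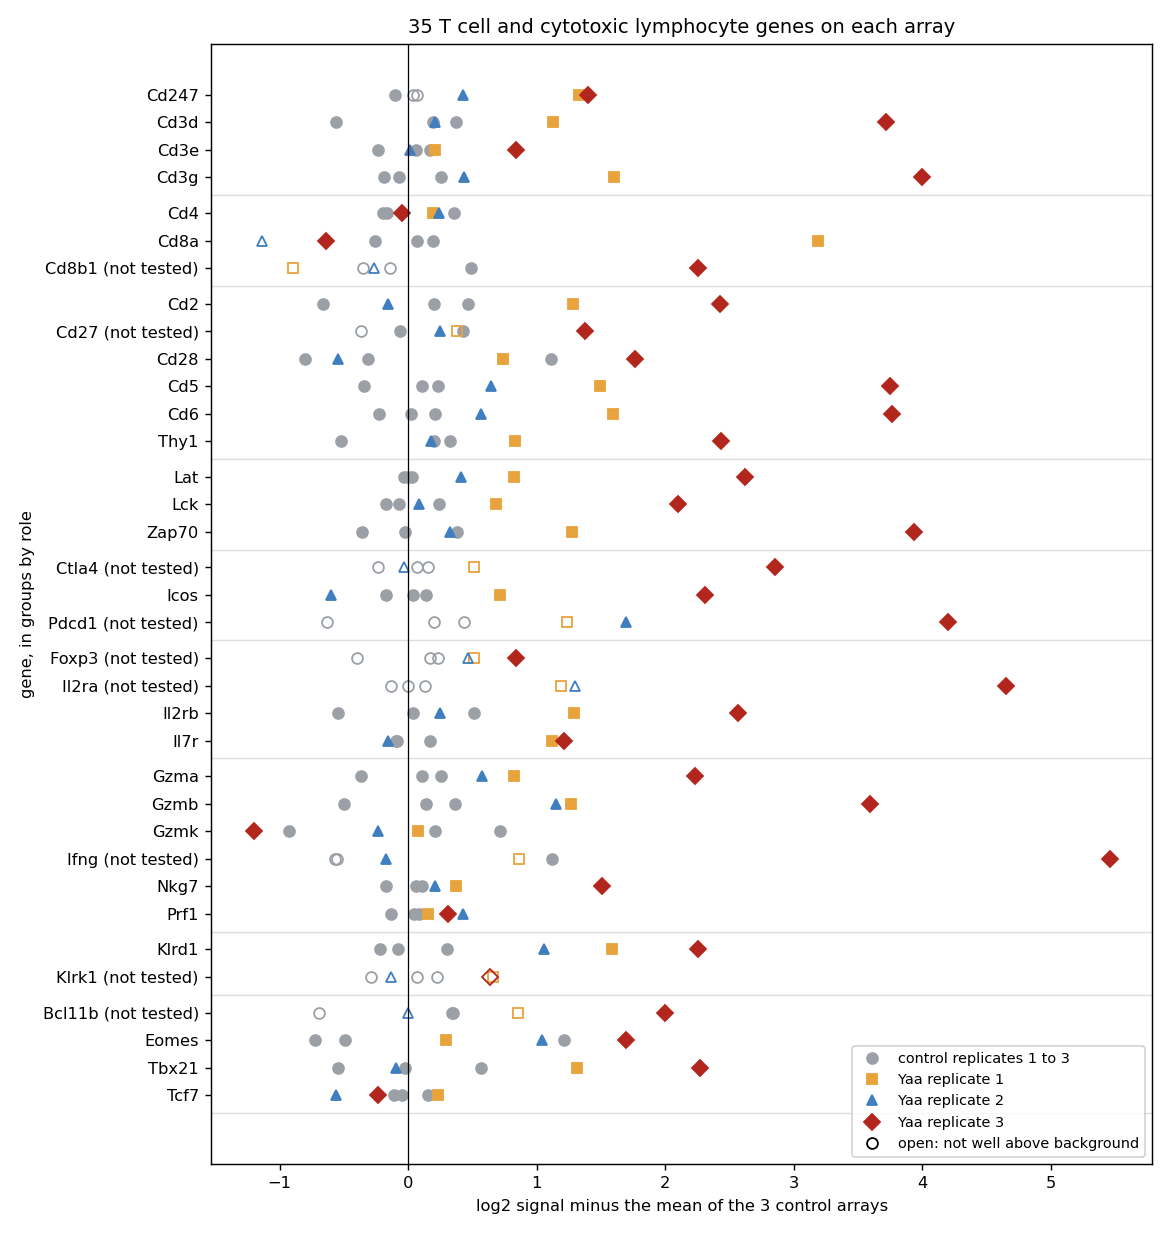
Level of each of the 35 genes on each array, as log2 signal minus the mean of the 3 control arrays (x axis), with genes on the y axis in groups by role. Grey circles are the 3 control arrays, the orange square, blue triangle and red diamond are Yaa replicates 1, 2 and 3, and open symbols were not well above background. The red diamond is the rightmost point for 29 of the 35 genes, among them 21 of the 26 tested.

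The CD3 chains differed among themselves. Their probes are printed here, as the last 30 bases of each 60-base probe, because Cd3d and Cd3g differed from Cd3e and because the Cd3e probe holds the polyadenylation signal AATAAA, in capitals. Positions are on mm9, to which the array design places its probes.
Cd3d, chr9:44794171-44794402, plus strand: agatacccagtacagccgtcttggagggaa
Cd3g, chr9:44777868-44777927, minus strand: agaactgtcaaagaaattttggtctttttt
Cd3e, chr9:44806828-44806887, minus strand: taatgcaaaaggcAATAAAgtgtattggct
The Cd3d probe spans 232 bases of the genome, more than its own 60, and the other 2 probes align without a gap.

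Cd3g, the gamma chain of CD3, was at -3.47, -3.14 and -3.58 on the control arrays and at -1.79, -2.96 and 0.60 on Yaa replicates 1, 2 and 3. All 3 Yaa arrays lay above all controls, Yaa replicate 2 by little and Yaa replicate 3 by far, and the log2 fold change of 2.01 ± 0.81 (SE) had a limma adjusted p of 0.294. Cd3d, the delta chain, was at -2.01, -1.83 and -2.76 on the control arrays and at -1.07, -1.99 and 1.52 on the Yaa arrays (1.68 ± 0.84, limma adjusted p = 0.381). The groups overlapped, since Yaa replicate 2 lay within the range of the controls. Cd3e, the epsilon chain, was at 1.35, 1.46 and 1.06 on the control arrays and at 1.504, 1.31 and 2.13 on the Yaa arrays, again highest on Yaa replicate 3 but by less (0.36 ± 0.24, limma adjusted p = 0.499). Cd247, the zeta chain, was at -4.13, -4.09 and -4.27 and then at -2.84, -3.74 and -2.76, and was well above background on 1 control array and all 3 Yaa arrays. Its log2 fold change of 1.05 ± 0.27 had a limma adjusted p of 0.0972, and unlike Cd3d and Cd3g it was about as high on Yaa replicate 1 as on Yaa replicate 3.

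The promoters of Cd3g and Cd3d face away from each other on chromosome 9, and their 300-base windows, from 250 bases before to 50 after the start, are 854 bases apart. They are shown, from RefSeq on GRCm38.p6, because both genes were lowest of the Yaa arrays on replicate 2 and highest on replicate 3, with the promoter of Gzmb, which was highest there too. Capitals mark 4 motifs of lymphocyte transcription factor families, searched on both strands, with no account of overlaps between them: TGTGGT for RUNX, CTTTGA for TCF/LEF, AGATAA for GATA and TCACAC for T-box factors.
Cd3g, chr9:44980382-44980681, minus strand: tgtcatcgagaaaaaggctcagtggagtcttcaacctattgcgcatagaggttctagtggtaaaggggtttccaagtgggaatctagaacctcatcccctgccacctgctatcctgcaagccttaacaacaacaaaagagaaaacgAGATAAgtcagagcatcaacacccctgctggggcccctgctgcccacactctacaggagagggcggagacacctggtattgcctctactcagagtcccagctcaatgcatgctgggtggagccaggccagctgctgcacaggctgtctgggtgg
Cd3d, chr9:44981536-44981835, plus strand: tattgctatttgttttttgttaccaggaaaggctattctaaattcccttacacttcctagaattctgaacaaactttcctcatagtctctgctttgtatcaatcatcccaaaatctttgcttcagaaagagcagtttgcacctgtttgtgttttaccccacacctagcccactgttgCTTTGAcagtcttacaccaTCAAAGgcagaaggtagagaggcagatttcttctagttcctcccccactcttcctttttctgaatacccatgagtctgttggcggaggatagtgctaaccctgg
Gzmb, chr14:56262285-56262584, minus strand: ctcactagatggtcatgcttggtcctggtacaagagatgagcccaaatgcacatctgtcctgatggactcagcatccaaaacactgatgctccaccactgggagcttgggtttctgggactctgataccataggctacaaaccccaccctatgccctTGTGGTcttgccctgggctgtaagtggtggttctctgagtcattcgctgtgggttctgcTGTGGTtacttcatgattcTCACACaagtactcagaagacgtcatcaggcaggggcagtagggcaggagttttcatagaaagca
The Cd3g window holds 1 GATA match, the Cd3d window 2 TCF/LEF matches, one on each strand, and the Gzmb window 2 RUNX matches and 1 T-box match. RefSeq windows were matched for 26 of the 35 genes, 31 windows in all. TGTGGT was in 29.0% of those windows and in 16.8% of all 32851 windows, CTTTGA in 25.8% and 16.0%, TCACAC in 22.6% and 14.5%, and AGATAA in 6.45% and 11.2%. These are matches of letters and do not show that a factor binds.

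The antigen-binding chains themselves are not among the 35 genes, but the array held 77 probes described as T cell receptor chains or segments, of which 11 were kept. The probe for beta constant region 1 was at -0.58, -0.65 and -0.89 on the control arrays and at 0.36, -0.71 and 2.58 on the Yaa arrays. That for beta constant region 2 was at -0.63, -0.90 and -1.16 and then at 0.29, -0.68 and 2.72. Both beta constant regions had the order seen for Cd3d and Cd3g, with Yaa replicate 3 highest, then 1, then 2, and neither passed limma's test over single probes (1.45 ± 0.75, limma adjusted p = 0.400, and 1.67 ± 0.78, limma adjusted p = 0.366). The alpha constant probe was well above background on Yaa replicate 3 alone, at -2.96, and was not tested. Of the 9 kept probes for variable segments, 2 were highest on Yaa replicate 3, with log2 fold changes from -0.67 to 0.33, and 0 passed limma's test over single probes. The filter needs all 3 arrays of a group, so it left out probes well above background on 1 Yaa array and no control array. Of these, probes of beta variable 1, 3, 5, 14 and 15 were highest on Yaa replicate 3. Those of alpha variable 10N and 7D-5 were highest on Yaa replicate 1, beta variable 13-2 on Yaa replicate 2 and alpha variable 5-4 on control replicate 1. Some of these segments also had a brighter, kept probe with another order. That of beta variable 5 was lowest on Yaa replicate 3, at -2.99 against -2.76 to -2.60 on the other arrays. Those of alpha variable 7D-5 and beta variable 13-2 were highest on Yaa replicate 3, at -1.85 and -2.28.

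The kinases and the adaptor that carry the receptor's signal followed the same order. Zap70, the kinase that docks on phosphorylated CD3, was at -1.60, -2.003 and -2.34 on the control arrays and at -0.70, -1.66 and 1.96 on the Yaa arrays (log2 fold change 1.85 ± 0.85, limma adjusted p = 0.348). Its dimmer probe was at -3.24, -2.97 and -3.85 and then at -2.63, -3.20 and 0.50, so that both probes of Zap70 were highest on Yaa replicate 3. Lat, the membrane adaptor, was within -2.77 to -2.71 on the control arrays and at -1.92, -2.33 and -0.12 on the Yaa arrays, with no overlap between groups (1.29 ± 0.53, limma adjusted p = 0.304). Lck, the kinase bound to the coreceptors, was at 0.88, 0.47 and 0.58 and then at 1.32, 0.73 and 2.74, with Yaa replicate 2 inside the range of the controls (0.95 ± 0.48, limma adjusted p = 0.383).

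At their tested probes, the coreceptors Cd4 and Cd8a did not share the order. The dimmer Cd8a probe did share it, and Cd8b1 was highest on Yaa replicate 3. Cd4, which macrophages and dendritic cells can also carry, was at 1.52, 2.04 and 1.49 on the control arrays and at 1.88, 1.92 and 1.63 on the Yaa arrays, the groups overlapping throughout (0.13 ± 0.19, limma adjusted p = 0.7497). Cd8a was read by probes that differed in which Yaa array was high, so both are shown, each by its last 30 bases.
Cd8a brighter probe, chr6:71323885-71323944, plus strand: cgaaggctactatttctgctcagtcatcag
Cd8a dimmer probe, chr6:71328911-71328970, plus strand: tctatctattgttactatcattttatacct
The brighter probe was at -3.23, -3.55 and -3.10 on the control arrays and at -0.11, -4.43 and -3.93 on the Yaa arrays, so that Yaa replicate 1 alone was high and the other Yaa arrays lay below every control. Its log2 fold change of 0.47 ± 1.06 (limma adjusted p = 0.843) became -0.89 without Yaa replicate 1 (limma adjusted p = 0.0890). The dimmer probe was at -4.77, -5.21 and -4.79 and then at -3.80, -5.22 and -2.13, well above background on Yaa replicate 3 alone. Cd8b1, the beta chain that pairs with Cd8a on killer T cells, was well above background on control replicate 1 (-3.71) and Yaa replicate 3 (-1.95) and lay between -5.10 and -4.35 on the other 4 arrays, so it was not tested.

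Among the surface receptors, Cd5, which damps receptor signalling, was at -2.10, -1.97 and -2.55 on the control arrays and at -0.72, -1.56 and 1.54 on the Yaa arrays (1.96 ± 0.73, limma adjusted p = 0.253). Cd6, a relative of Cd5, was at -2.05, -1.86 and -2.30 and then at -0.47, -1.50 and 1.69 (1.98 ± 0.73, limma adjusted p = 0.253). In both genes every Yaa array lay above every control. The second Cd6 probe did not share this: it was at -2.23, -2.06 and -2.27 on the control arrays and at -2.03, -2.21 and -2.76 on the Yaa arrays, lowest on Yaa replicate 3. The adhesion receptor gene Cd2 (1.19 ± 0.64), the T cell surface protein gene Thy1 (1.15 ± 0.56) and the costimulatory receptor gene Cd28 (0.65 ± 0.68) had limma adjusted p-values of 0.413, 0.371 and 0.655, and each was highest on Yaa replicate 3 with Yaa replicate 2 inside or below the range of the controls. Cd27, a costimulatory receptor of the TNF receptor family, was well above background on 2 arrays of each group and ranged from -4.11 to -3.32 on the control arrays and from -3.50 to -2.37 on the Yaa arrays.

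Several genes of activated and regulatory T cells were near background on most arrays. Icos, a costimulator of activated T cells, was at -1.97, -1.87 and -2.18 on the control arrays and at -1.29, -2.61 and 0.30 on the Yaa arrays (0.81 ± 0.66, limma adjusted p = 0.573). Pdcd1, the inhibitory receptor PD-1, was well above background on no control array (-4.08, -4.32 and -5.15) and on Yaa replicates 2 and 3 (-3.28, -2.82 and -0.32 on replicates 1, 2 and 3). Il2ra, the alpha chain of the interleukin 2 receptor, was well above background on Yaa replicate 3 alone, at -1.34, while the other Yaa arrays were at -4.80 and -4.69 and the controls between -6.12 and -5.86. Ctla4, an inhibitory receptor, was likewise well above background on Yaa replicate 3 alone, at -3.25 against -6.34 to -5.59 on the other 5 arrays. Foxp3, the factor that defines regulatory T cells, was well above background on that array alone too, but its level there (-3.89) was close to those of the other Yaa arrays (-4.22 and -4.26). None of these 4 genes was tested, since no group had them well above background on all 3 arrays. Il2rb, the beta chain shared by the interleukin 2 and 15 receptors, was at -1.78, -2.25 and -2.83 on the control arrays and at -0.999, -2.04 and 0.28 on the Yaa arrays (1.37 ± 0.57, limma adjusted p = 0.310). Il7r, the survival receptor of resting T cells, was at -3.16, -2.90 and -3.17 and then at -1.96, -3.23 and -1.86, with replicates 1 and 3 alike (0.73 ± 0.36, limma adjusted p = 0.379). Without Yaa replicate 2, the lowest Yaa array for both genes, Il7r and Cd247 passed the test as higher (limma adjusted p = 0.0194 and 0.00920). In that setting 3.36% of all genes passed, 2.87% as higher, and Cd247 entered the test through the Yaa arrays alone.

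Of the granule genes, Gzmb, a granzyme that starts apoptosis in target cells, was at -3.09, -3.73 and -2.87 on the control arrays and at -1.96, -2.08 and 0.36 on the Yaa arrays (2.00 ± 0.65, limma adjusted p = 0.192). Gzma, another granzyme, was at 0.43, -0.18 and 0.29 and then at 1.00, 0.76 and 2.41 (1.21 ± 0.43, limma adjusted p = 0.235). Both granzymes were above every control on all 3 Yaa arrays. Of the 49 probes, that of Gzma alone shares a stretch of 22 bases with a probe of another name. Nkg7, a granule membrane protein, was at 1.17, 1.21 and 0.94 on the control arrays and at 1.48, 1.31 and 2.62 on the Yaa arrays (0.70 ± 0.34, limma adjusted p = 0.369), and its dimmer probe differed by 2.17 ± 0.78 (limma adjusted p over single probes = 0.245) in the same order of arrays. Prf1, the pore-forming perforin, was at -1.10, -1.14 and -1.31 and then at -1.03, -0.76 and -0.87, without overlap but without a high Yaa replicate 3 (0.30 ± 0.14, limma adjusted p = 0.342). Ifng, interferon gamma, reached 0.80 on Yaa replicate 3 against -3.80 and -4.84 on Yaa replicates 1 and 2, and was at -3.54, -5.21 and -5.23 on the control arrays. It was well above background on control replicate 1 and on Yaa replicates 2 and 3, and was not tested.

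Gzmk, a granzyme of memory killer T cells, gave different results with its 2 probes. Their stretches are printed because they lie in different places of the gene: the brighter probe by its last 30 bases, and the dimmer probe by its first 30, with AATAAA in capitals.
Gzmk brighter probe, chr13:113970774-113971087, minus strand: atgtcttcagagtgtttccatactgaaatt
Gzmk dimmer probe, chr13:113961816-113961875, minus strand: cgttcatcctaAATAAAatgtggacgtctg
The brighter probe spans 314 bases of the genome. It was at -0.20, -0.70 and -1.83 on the control arrays and at -0.83, -1.15 and -2.11 on the Yaa arrays, with overlap (-0.45 ± 0.48, limma adjusted p = 0.664). The dimmer probe was well above background on no control array, at -4.58, -4.76 and -4.16, and on all 3 Yaa arrays, at -2.05, -1.22 and -0.72. Its log2 difference of 3.17 ± 0.34 had a limma adjusted p of 0.00338 in the fit over single probes, which it entered through the Yaa arrays alone, the group where it is high. The control values are not well above background, and the bound that counts the control arrays at no less than their dimmest signal well above background is at least 6.85-fold higher. With the mean of both probes, which takes in those dim control values, the log2 fold change of Gzmk was 1.36 (limma adjusted p = 0.00896). Over single probes 934 of 28598 passed (3.27%, and 2.62% as higher), and 2 of the 31 kept probes of the listed genes did, this one and that of Klrd1. AATAAA was in 9 of those 31 probes (29.0%, against 12.6% of all kept probes), and the median log2 difference was 0.95 for probes that hold it and 1.23 for those that do not.

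**Figure D2:**
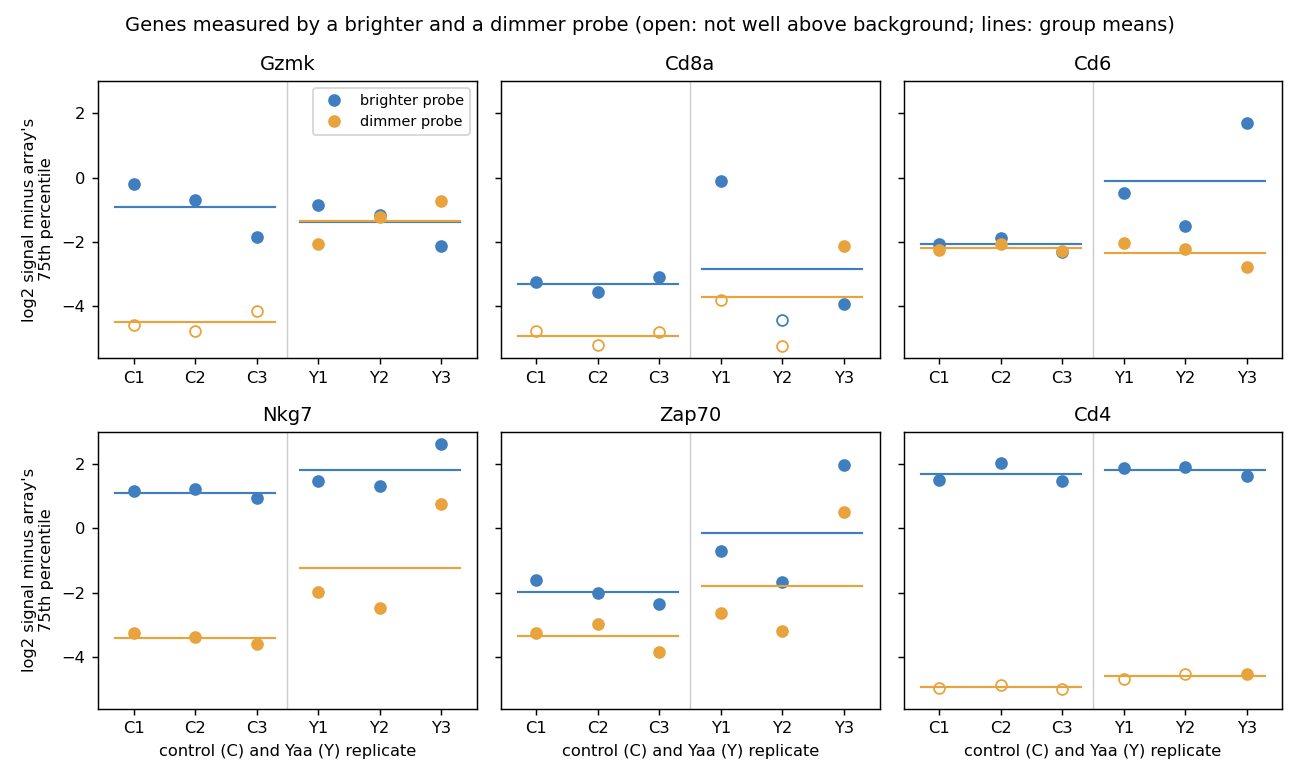
Log2 level (y axis) on the 3 control and 3 Yaa arrays (x axis) for 6 genes with a brighter (blue) and a dimmer (orange) probe. Horizontal lines are group means and open circles were not well above background. The dimmer Gzmk probe is higher on every Yaa array while the brighter one is not, Cd8a is high on Yaa replicate 1 by one probe and on Yaa replicate 3 by the other, and both probes of Nkg7 and Zap70 are highest on Yaa replicate 3.

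Klrd1, which encodes CD94, the partner of inhibitory and activating NKG2 receptors on NK cells and killer T cells, was the gene that passed. Its probe lies on mm9 at chr6:129548612-129548671, plus strand, and ends in these 30 bases, shown because the call rests on this 1 probe.
Klrd1: cttgatggcttcttcacacgtgtgcataaa
It was at -3.28, -3.67 and -3.81 on the control arrays and at -1.998, -2.53 and -1.33 on the Yaa arrays, higher on 3 of 3 Yaa arrays than on any control array. The log2 fold change was 1.63 ± 0.31, a fold of 3.099 (limma adjusted p = 0.0391), and Yaa replicate 3 stood only 0.93 above the mean of the other Yaa arrays, less than for most of the listed genes. The call was close to the threshold: with replicates as a block the limma adjusted p was 0.0792, after normexp background correction, where the log2 fold change was 0.55, it was 0.136, and with no filter 0.139. It was 0.0840, 0.156 and 0.160 without control replicates 1, 2 and 3, 0.0752 without Yaa replicate 1, 0.0205 without Yaa replicate 2 and 0.0494 without Yaa replicate 3, over a range of 0.0205 to 0.160 in all alternatives. Klrk1, the activating receptor NKG2D, was well above background on no array. Of the NK cell markers, Klrd1 and Eomes were well above background on all 3 arrays of each group at their tested probes. Ncr1 was well above background on 1 control and 1 Yaa array, Klrb1c on 0 control and 2 Yaa arrays, and Klre1 on 0 control and 1 Yaa array. Of 11 further NK cell and cytotoxic genes, 5, 5 and 4 were well above background on control replicates 1, 2 and 3. On Yaa replicates 1, 2 and 3 these numbers were 5, 6 and 11.

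The lineage transcription factors were mixed. Tbx21, which encodes T-bet and drives interferon gamma, was at -3.04, -3.56 and -2.46 on the control arrays and at -1.70, -3.12 and -0.75 on the Yaa arrays (1.17 ± 0.59, limma adjusted p = 0.387). Eomes, its relative in killer cells, was at -3.09, -3.33 and -1.39 and then at -2.31, -1.57 and -0.91 (1.01 ± 0.57, limma adjusted p = 0.434). Its spread was wider over the controls (SD 1.06) than over the Yaa arrays (SD 0.70). Tcf7, a factor of naive and memory T cells, was at -1.17, -0.97 and -1.24 and then at -0.90, -1.69 and -1.36 (-0.19 ± 0.22, limma adjusted p = 0.682). Bcl11b, a T lineage commitment factor, was well above background on 1 array of each group and was not tested, with its highest level, -2.15, on Yaa replicate 3. With no filter, 0 of the 9 genes left untested passed limma's test, where 1.14% of all genes passed. Pdcd1, Foxp3 and Il2ra had an unadjusted limma p below 0.05 there (0.0259, 0.0406 and 0.0445). The share of all genes below that p was not counted for this fit. These 3 genes were well above background on no control array, so their p-values rest on control signals near background.

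**Figure D3:**
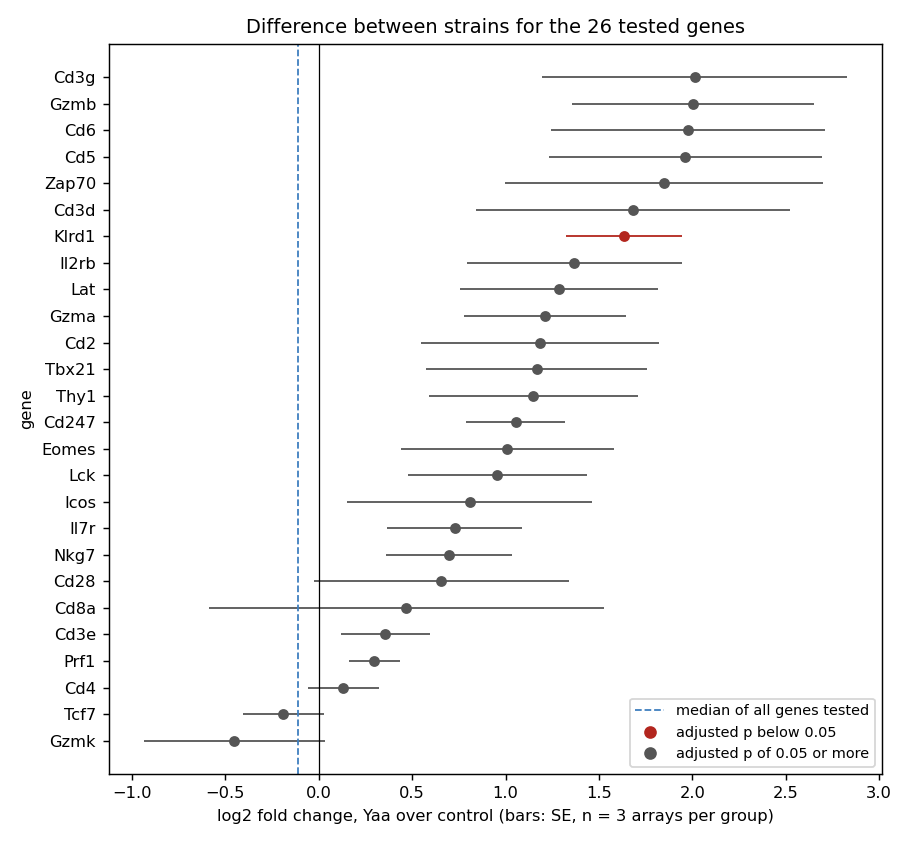
Log2 fold change of Yaa over control (x axis) for the 26 tested genes (y axis), with bars of 1 SE from limma, 3 arrays per group. The dashed line is the median of all genes tested, -0.11, and the gene in red, Klrd1, passed the test. 24 genes lie above 0, and those farthest right, Cd3g, Gzmb, Cd6 and Cd5, have SEs of 0.65 to 0.81.

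The spread over the Yaa pools was the other main feature. The median SD of the 26 genes was 1.16 over the Yaa arrays and 0.29 over the control arrays, against 0.25 and 0.15 over all genes tested. For 15 of the 26 the SD over the Yaa arrays was above 1, against 2.23% of all genes. Yaa replicate 3 was the highest of the 6 arrays for 21 of the 26 (18.9% of all genes), the exceptions being Cd4, Cd8a, Gzmk, Prf1 and Tcf7. The order Yaa replicate 3 above 1 above 2 held for 20 of the 26 (8.78% of all genes). In medians, Yaa replicates 1 and 2 lay 0.61 above the controls and Yaa replicate 3 lay a further 1.66 above them, and over all genes these were -0.08 and -0.06. Without Yaa replicate 3 the median log2 fold change of the list was 0.61, and the median SD over the Yaa arrays was 0.58. In number, 27 of the 35 genes were well above background on each control array and 26, 28 and 34 on Yaa replicates 1, 2 and 3.

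**Figure D4:**
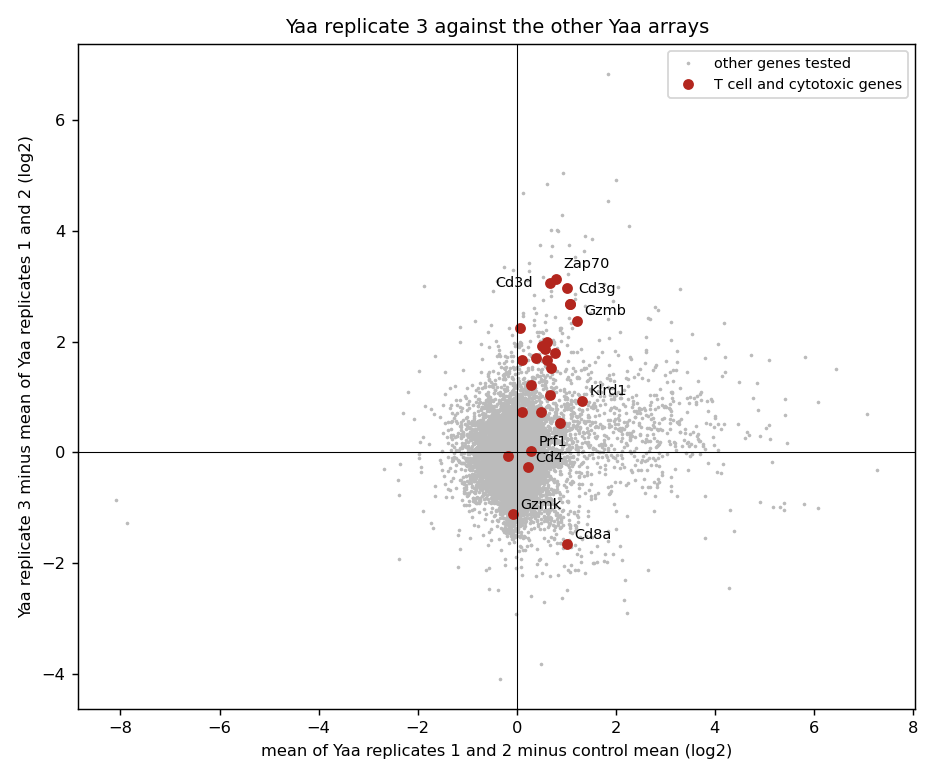
Each of the 20716 genes tested by the mean of Yaa replicates 1 and 2 minus the control mean (x axis, log2) and by Yaa replicate 3 minus the mean of Yaa replicates 1 and 2 (y axis, log2). Red points are the 26 tested T cell and cytotoxic genes. Zap70, Cd3d and Cd3g lie about 3 above 0 on the y axis, Klrd1 is farthest right of the red points, and Cd8a and Gzmk lie below 0 on the y axis.

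Marker lists of other cell types were set beside the 35 genes by their summed levels. The summed linear level of the 35 genes, each relative to its array's 75th percentile, was 18.9, 18.6 and 14.8 on the control arrays, and it was 26.8, 19.5 and 63.9 on Yaa replicates 1, 2 and 3. That of 16 macrophage markers was 201, 192 and 167 and then 315, 288 and 298, about even over the Yaa arrays, and 12 of the 16 rose, with a median log2 fold change of 3.66. Gene by gene, Yaa replicate 3 was the highest of the 6 arrays for 12 of the 16 (75%), against 21 of the 26 tested listed genes. The median step from Yaa replicates 1 and 2 to Yaa replicate 3 was 0.54 for the macrophage markers and 1.66 for the listed genes. The 11 B cell and plasma cell markers on the array summed to 9.18 to 12.2 on the control arrays and reached 17.9 on Yaa replicate 1, the highest, with 1 of 8 tested markers past the test and Pax5 above background on no array. Podocyte markers summed to 979 to 1153 on the Yaa arrays and 1242 to 1310 on the control arrays, glomerular endothelium markers to 378 to 533 and 564 to 658, both lowest on Yaa replicate 3, and 0 of the 15 tested markers of these 2 lists passed. Proximal tubule markers summed to 37.4 to 84.5 on the Yaa arrays and 59.1 to 98.5 on the control arrays. Yaa replicate 3 was also the brightest array, as given above, and with quantile normalization, which gives all arrays one distribution, the median log2 fold change of the list was 1.14 and its median SD over the Yaa arrays 1.15. Immediate early and heat shock genes can respond to tissue handling. Those given here were picked out after their values were seen, among genes with the largest step to Yaa replicate 3. That they were highest on that array follows from this choice, and other genes of these classes were not counted. Egr1 was at 1.57, 1.02 and 1.46 on the control arrays and at 1.08, 2.02 and 4.66 on the Yaa arrays. Fos was at 0.15, -0.95 and 0.49 and then at 0.053, 0.69 and 2.38, and Hspa1a at 1.65, -0.13 and 1.84 and then at -1.86, 0.35 and 2.25. The part of cell makeup, tissue handling, signal strength or pool in the result was not tested further, and in RNA from whole glomeruli more cells of a type and more RNA per cell cannot be told apart. Strain and position on the slide cannot be told apart either. The first number of the array's slide position was 1 for every control array and 2 for every Yaa array.

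**Figure D5:**
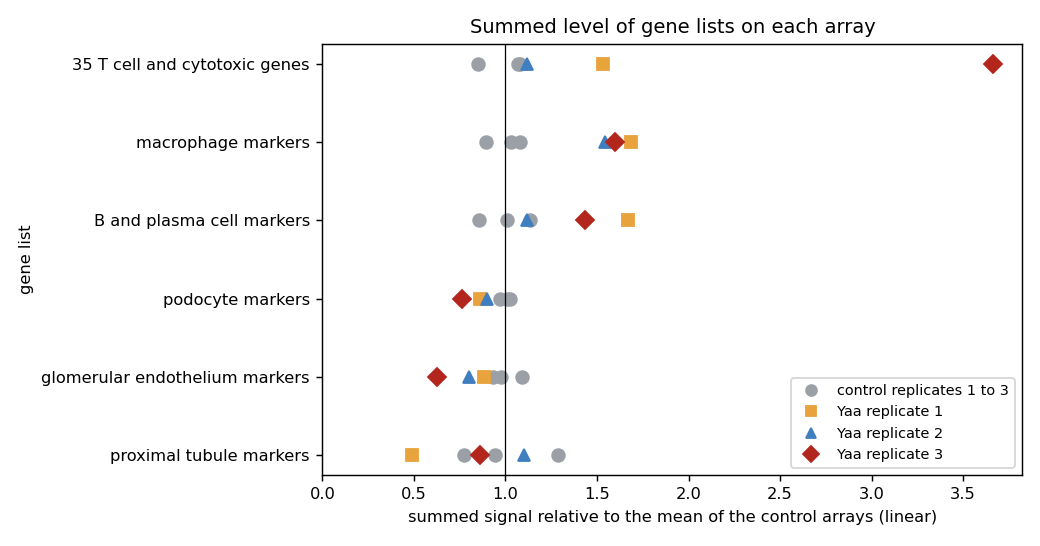
Summed linear signal of 6 gene lists on each array, relative to the mean of the 3 control arrays (x axis, starting at 0), with lists on the y axis. Symbols are as in the plot of the 35 genes by array. The T cell and cytotoxic genes stand apart on Yaa replicate 3, at 63.9 against 14.8 to 26.8 on the other arrays before division by the control mean. The summed signal of the macrophage markers is similar on the 3 Yaa arrays, although 12 of the 16 markers were each highest on Yaa replicate 3.

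The rest of the pathway was read from 74 further genes of receptor signalling, checkpoint receptors, cytokines, homing, chemokines, NK cells and transcription factors, of which 73 were on the array and 48 were tested. Of those 48, 8 rose, 0 fell and 40 did not pass, with a median log2 fold change of 0.72, where 2.96% of all genes tested rose and 0.85% fell. Of the 8, 5 entered the test through the Yaa arrays alone, the group where they are high, among them Grap2, Lcp2, Havcr2 and Il21r. With no filter on signal, which makes no such selection, those 4 had limma adjusted p-values of 0.0137, 0.0212, 0.00814 and 0.0405. Those that rose in receptor signalling included Ptpn22, a phosphatase that restrains Lck and Zap70 (2.95 ± 0.24, limma adjusted p = 0.00104), Grap2, an adaptor (3.63 ± 0.35, limma adjusted p = 0.00215), and Lcp2, the adaptor SLP-76, at least 7.34-fold (limma adjusted p = 0.00392). Ptpn22 was at -2.12, -2.38 and -2.22 on the control arrays and at 0.44, 0.45 and 1.23 on the Yaa arrays, so that all Yaa arrays lay above all controls. Blood cells other than T cells also express these genes.

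Of the checkpoint receptors 1 of 5 rose, Havcr2 (TIM-3, which macrophages and dendritic cells also carry), at least 14.0-fold (limma adjusted p = 0.00115), with no control array well above background. Of the cytokine receptors 1 of 4 rose, Il21r, at least 8.40-fold (limma adjusted p = 0.00875, and 0.0507 with the replicate block). Lcp2 lost its call without control replicate 2 (limma adjusted p = 0.0730) and without Yaa replicate 3 (0.107). After normexp correction the log2 fold changes of the dimmer genes were smaller, 1.78 for Havcr2, 1.81 for Grap2, 1.14 for Lcp2 and 1.40 for Il21r. Cxcr3, a receptor of T cells that follow interferon-induced chemokines, was at -3.01, -4.47 and -3.63 on the control arrays and at -1.47, -1.85 and 0.10 on the Yaa arrays (2.63 ± 0.57, limma adjusted p = 0.0612). Of the chemokines 1 of 7 rose, Cxcl13, which draws B cells and follicular helper T cells, from 1.31, 1.69 and 1.28 to 3.20, 4.38 and 3.72 (2.34 ± 0.30, limma adjusted p = 0.00755, and 0.0533 without control replicate 3). Ccl5, a chemokine that T and NK cells make and follow, was at 2.29, 1.77 and 1.38 and then at 3.57, 3.06 and 4.77, without overlap (1.99 ± 0.45, limma adjusted p = 0.0704). The median log2 fold change of the 7 chemokines was 1.99, and 5 had an unadjusted limma p below 0.05 (16.1% of all genes). For 5 of the 7 every Yaa array lay above every control array (7.81% of all genes). Cxcl9 and Cxcl10 did not pass with all arrays (limma adjusted p = 0.219 and 0.154). Both passed without Yaa replicate 3, where 2.95% of all genes did. Of 5 tested NK cell and cytotoxic genes and 9 tested transcription factors 0 passed limma's test. At an unadjusted p below 0.05, which 16.1% of all genes passed, there were 2 of the 5, both higher, and 4 of the 9, of which Bcl6 and Tox were higher and Lef1 and Gata3 lower. Their medians were 0.25 and 0.32.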

How the data were processed

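Total RNA of glomerular pools was labelled with Cy3 and hybridised to 1-colour Agilent arrays, 1 array per pool, per the labels' protocols. The deposited files hold linear signal intensity per spot, background-subtracted and detrended by the authors with Agilent Feature Extraction (10.7.3.1 per the file headers, 9.5.3 per the submitters' processing notes) and not normalized between arrays. No tested gene of the list carried a surrogate value.

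Control spots (3671) and outlier spots (121 to 166 per array) were left out, spots of a probe were averaged on the log2 scale and the array's 75th percentile over 55681 probes was subtracted. A probe was kept where at least 0.5 of its spots were well above background on all 3 arrays of a group (28598 probes). A gene was its brightest kept probe, by the array's gene name. The strains were tested against each other in limma 3.58.1 under R 4.3.3, two-sided, with Benjamini-Hochberg adjustment over all 20716 genes and a threshold of 0.05. The fit was tested on simulated data. There each gene had 1 spread for both groups, so the fit was not tested under the wider Yaa spread of the listed genes. Where a probe was well above background on no control array, the fold is a bound. All 35 listed genes are named, and up to 4 further genes of each other list by smallest adjusted p, of which some are not reported here. The listed genes and the other lists were chosen with earlier results of these data known. Same-numbered arrays share the second number of their slide position. They deviated together (correlations 0.126, 0.205 and 0.218, the others -0.194 to 0.028), so the replicate number was tried as a block. Exon and UTR positions of the probes on mm9 were not used here. The number of arrays limits the precision.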

Additional observations from a re-analysis of the deposited data

How the results depend on the processing

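Of the listed genes, 1 passed in the main analysis, 0 after normexp background correction, 0 with no filter on dim probes, 0 with the replicate block, 2 with probes of a gene averaged (Gzmk and Klrd1) and 2 over single probes, an alternative chosen after seeing the data. Leaving out 1 array at a time gave 0 to 3, with 0 without any one control array or Yaa replicate 1, 3 without Yaa replicate 2 (Cd247, Il7r and Klrd1) and 1 without Yaa replicate 3. Besides Klrd1 and Il21r, the block changed no call of a gene named here. Of all genes 790 (3.81%) passed, 396 (1.14%) with no filter, and 399 to 1027 (1.92% to 4.75%) with an array left out. The median log2 fold change of the list was 1.10, and 0.61 to 1.52 with an array left out. The median SD over the Yaa arrays was 1.16, and 0.58 to 1.56. For Gzmk the sign was turned with its probes averaged (1.36) and by its dimmer probe (3.17, with a bound of 2.78 because no control array was well above background there). With an array left out, the log2 fold change ranged from -0.89 to 1.27 for Cd8a, -0.35 to 1.39 for Il12rb2 and -0.014 to 0.39 for Cd244, each lowest without Yaa replicate 1. The alternatives differ by construction in the probes, arrays or signals that enter, and the cause of each change was not tested otherwise. Dim signals limit Cd8b1, Ctla4, Pdcd1, Foxp3, Il2ra, Ifng, Klrk1, Cd27 and Bcl11b.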

Other observations

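Genes with the largest step from Yaa replicates 1 and 2 to Yaa replicate 3 were looked up after their values were seen. They are given as values, with no test of that step. The 100 with the largest step are 0.48% of all genes tested, and they held 7 of the 26 tested T cell and cytotoxic genes. The first 200 of the 20716 genes tested held 14 of the 26. Zap70 was at rank 26, Cd3d at 29, Cd3g at 35, Cd5 at 45, Cd6 at 46, Gzmb at 62 and Icos at 72. A further 13 of the 100 were among 16 tested guanylate-binding proteins and immunity-related GTPases, which interferon gamma induces, a family picked out after the values were seen. The 100 also held the immediate early and heat shock genes Egr1 (rank 27), Hspa1a (32), Hsph1 (70), Egr2 (78) and Fos (100). Gbp2 was at 0.34, 0.27 and 0.49 on the control arrays and at 0.86, 1.27 and 5.09 on the Yaa arrays. Cxcl9, a chemokine that draws Cxcr3-bearing T cells, was at -3.56, -3.51 and -3.33 and then at -1.59, -1.64 and 2.92. Cxcl10, which acts on the same receptor, was at -0.25, -0.50 and 0.26 and then at 2.29, 1.91 and 6.20. Cd274, which encodes the ligand of PD-1, was at -0.48, -0.60 and -0.75 and then at 0.92, 0.62 and 4.68. Tap1, a peptide transporter of antigen presentation, was at -3.22, -3.22 and -3.16 and then at -2.06, -1.98 and 1.51. In these 5 genes the other Yaa arrays also lay above every control array, and Yaa replicate 3 lay higher still. Crtam, a receptor of activated killer T and NK cells, was at -3.60, -3.69 and -4.78 and then at -3.03, -4.05 and 0.21.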
